A study of Mus musculus with 2 samples.

Results

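The genes described here are the matrix metalloproteinases (MMPs), the ADAMTS proteases, the ADAMTS-like proteins (ADAMTSL) and the tissue inhibitors of metalloproteinases (TIMPs). They were taken by symbol alone, as every gene named Mmp, Adamts, Adamtsl or Timp followed by its number, which gave 50 of the 32246 symbols measured. Of these 50, 22 were MMPs, 19 were ADAMTS genes, 5 were ADAMTSL genes and 4 were TIMPs. Their transcripts were read in single cells of tissue given as mouse subcutaneous white fat, from 1 library of Paqr4 transgenic cells and 1 library of WT cells. Both libraries held stromal vascular cells, the cells that remain of fat once adipocytes are removed, after digestion with collagenase D and sorting for cells without the blood cell protein CD45. The series text says that cells of 3 mice were pooled, without saying whether per genotype, and the labels give neither the promoter of the transgene nor the age of the mice.

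MMPs and ADAMTS enzymes are zinc-dependent proteases that cut extracellular matrix. Collagenases and gelatinases of the MMP family cut collagens, whereas several ADAMTS enzymes cut large proteoglycans such as versican and aggrecan, and others trim procollagens. ADAMTSL proteins share the domains that bind ADAMTS enzymes to matrix but have no protease domain, and several of them bind fibrillin microfibrils. TIMPs are secreted proteins that block the active site of these enzymes. In fat, matrix cleavage around precursor cells and capillaries accompanies the growth of new adipocytes.

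Each genotype had a single library, so every difference between genotypes below is a difference between 2 libraries and has no test. Values in parentheses marked log2 are log2 ratios of the transgenic over the WT level, with their intervals, and all intervals are exact 95% intervals that cover counting error only. Levels are given as UPM, unique molecular identifiers (UMIs) of a gene for each 1000000 UMIs in the cells in question. The libraries held 1521 transgenic and 1328 WT cells and shared 0 cell barcodes. Progenitors, the fibroblast-like cells that can form adipocytes, made up 1359 transgenic and 1128 WT cells, and endothelial cells made up 79 transgenic and 95 WT cells. The 10 progenitor markers summed to 29084 UPM in transgenic and 31410 UPM in WT progenitors, and to 1189 and 1914 UPM in endothelial cells of the transgenic and WT libraries. The female-specific RNA Xist stood at 0.152 UPM in transgenic and 959 UPM in WT progenitors, so genotype and sex cannot be told apart in any comparison of the libraries. Markers of lymphocytes or plasma cells summed to 25.9 UPM in transgenic and 1.25 UPM in WT progenitors, and their part in the results below was not tested. Mesothelial markers, among them Wt1, summed to 380 UPM in transgenic and 501 UPM in WT progenitors. An unnamed cluster of 41 transgenic and 44 WT cells, led by haemoglobin genes, also held mesothelial genes such as Upk3b. Another, of 5 transgenic and 25 WT cells, was led by digestive enzyme genes such as Ctrb1 and Cela3b. Whether cells of another tissue entered the libraries was not tested.

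The MMP genes have an unusual arrangement on the chromosomes. GENCODE M21 (GRCm38) places the 50 genes on 18 chromosomes, but 9 MMP genes lie side by side within 427 kb of chromosome 9, at chr9:7272514-7699585, in the order Mmp13, Mmp12, Mmp1b, Mmp3, Mmp10, Mmp8, Mmp27, Mmp20 and Mmp7. Of these 9 genes, 7 had 0 UMIs in progenitors of both libraries. Mmp3 (stromelysin 1, which cuts many matrix proteins) was the exception, with 802 transgenic and 613 WT UMIs, and Mmp27 had 16 transgenic and 28 WT UMIs. Most promoters of this cluster share a layout that can be seen in their letters. RefSeq promoter sequences (GRCm38.p6, 250 bases before to 50 bases after the start) were found for 35 of the 50 genes, among them all 9 of the cluster. The AP-1 motif (TGANTCA on either strand, bound by Fos and Jun proteins) occurred in 7 of the 35 genes, all in the cluster, and in 0 of the 26 others, against 7.81% of all 32851 promoters. A TATA box (TATAAA on either strand) was present in each of these 7 promoters, while both motifs together occurred in 1.54% of all promoters. In the cluster, Mmp27 had neither motif, and Mmp8 had a TATA match but no AP-1 match. Shown here are 120 bases, from 100 before to 20 after the annotated start, for the expressed Mmp3 and for Mmp13 and Mmp10, which had 0 UMIs. Timp2 and Mmp14, 2 well-expressed genes outside the cluster, are shown for contrast. Capitals mark the AP-1 and TATA motifs, which do not overlap. Mmp3 is at chr9:7445722-7445841 (plus strand), Mmp13 at chr9:7272414-7272533 (plus), Mmp10 at chr9:7502242-7502361 (plus), Timp2 at chr11:118355392-118355511 (minus) and Mmp14 at chr14:54431498-54431617 (plus).
Mmp3: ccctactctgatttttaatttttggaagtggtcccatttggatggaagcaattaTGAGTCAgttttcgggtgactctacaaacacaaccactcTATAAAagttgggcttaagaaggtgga
Mmp13: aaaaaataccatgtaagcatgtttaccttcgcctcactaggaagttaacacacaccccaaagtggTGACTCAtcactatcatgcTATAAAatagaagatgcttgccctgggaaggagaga
Mmp10: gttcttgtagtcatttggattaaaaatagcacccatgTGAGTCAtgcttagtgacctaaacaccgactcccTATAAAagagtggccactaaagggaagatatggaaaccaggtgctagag
Timp2: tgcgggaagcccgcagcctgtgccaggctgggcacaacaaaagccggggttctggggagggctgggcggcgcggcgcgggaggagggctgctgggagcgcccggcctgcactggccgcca
Mmp14: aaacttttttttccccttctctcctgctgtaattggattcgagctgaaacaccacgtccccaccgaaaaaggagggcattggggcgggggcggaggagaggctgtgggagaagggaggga

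In these letters the AP-1 motif begins 46 bases before the start in Mmp3, 35 bases before it in Mmp13 and 63 bases before it in Mmp10, in each case upstream of the TATA box. The Timp2 and Mmp14 windows hold neither motif. Over the 300 bases, the GC box (GGGCGG on either strand) occurred in 22 of the 35 genes, against 35.7% of all promoters. The CRE motif (TGACGTCA on either strand) and the NF-kB motif occurred in 0 of the 35, against 1.79% and 1.63% of all promoters. A motif is a match of letters in this window. Of the 7 genes with both motifs, Mmp3 alone had UMIs in progenitors, while Mmp27, the other cluster gene with UMIs there, had neither.

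Progenitors carried a broad set of these genes. Of the 50, 32 reached 50 UMIs over both libraries in progenitors, a minimum set for a ratio, 11 had between 1 and 49 UMIs, and 7 had none. All 5 ADAMTSL genes passed, as did 16 of 19 ADAMTS genes, 3 of 4 TIMPs and 8 of 22 MMPs. Summed over each family, ADAMTS transcripts stood at 3079 UPM in transgenic and 2887 UPM in WT progenitors, and TIMPs at 1581 and 1676 UPM. ADAMTSL transcripts summed to 882 UPM in transgenic and 1215 UPM in WT progenitors, and MMP transcripts to 757 and 872 UPM. The 4 families had the same order in both libraries, with ADAMTSL and MMP sums closer together in the transgenic one. Levels count UMIs and were not divided by gene length. The labels do not settle whether intronic reads were counted. The part of gene length in differences of level between genes or families was not tested.

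Among the inhibitors, Timp2, which also helps to activate pro-MMP2 at the cell surface, had the highest level of all 50 genes, at 1019 UPM in transgenic and 1112 UPM in WT progenitors. Timp3, which binds to matrix and also inhibits ADAMTS enzymes, stood at 509 UPM in transgenic and 517 UPM in WT progenitors. Timp1, an X-linked secreted inhibitor, was lower, at 52.2 UPM in transgenic and 46.8 UPM in WT progenitors. Timp4 was nearly absent from these cells, with 2 transgenic and 0 WT UMIs.

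Adamts12 and the aggrecanases led the proteases. Adamts12, which cuts cartilage oligomeric matrix protein, stood at 831 UPM in transgenic and 780 UPM in WT progenitors and had a UMI in 95.7% of progenitors in each library. The aggrecanase Adamts5 stood at 619 UPM in transgenic and 608 UPM in WT progenitors. Adamts4, the other main aggrecanase, stood at 634 and 589 UPM in the transgenic and WT libraries. Adamts1, which cuts versican, stood at 276 UPM in transgenic and 311 UPM in WT progenitors. Of the 2 aggrecanases, Adamts4 was the higher in the transgenic library and Adamts5 in the WT library.

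The procollagen-trimming enzymes were carried mostly by Adamts2, at 327 UPM in transgenic and 270 UPM in WT progenitors. Its relatives Adamts3 and Adamts14 stood at 35.7 and 18.9 UPM in transgenic and at 44.8 and 21.8 UPM in WT progenitors. Adamtsl1 (punctin), a matrix protein without protease activity, stood at 456 UPM in transgenic and 750 UPM in WT progenitors, and Adamtsl3 at 359 and 386 UPM. Among MMPs, Mmp2 (gelatinase A) stood at 237 UPM in transgenic and 326 UPM in WT progenitors. Mmp14, the membrane-bound enzyme that activates pro-MMP2, stood at 255 and 290 UPM in the same cells. Mmp23, a membrane-anchored MMP, stood at 121 UPM in transgenic and 114 UPM in WT progenitors. Mmp9, the other gelatinase, had 1 transgenic and 2 WT UMIs, fewer than the floor of 3 UMIs used here.

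**Figure D1:**
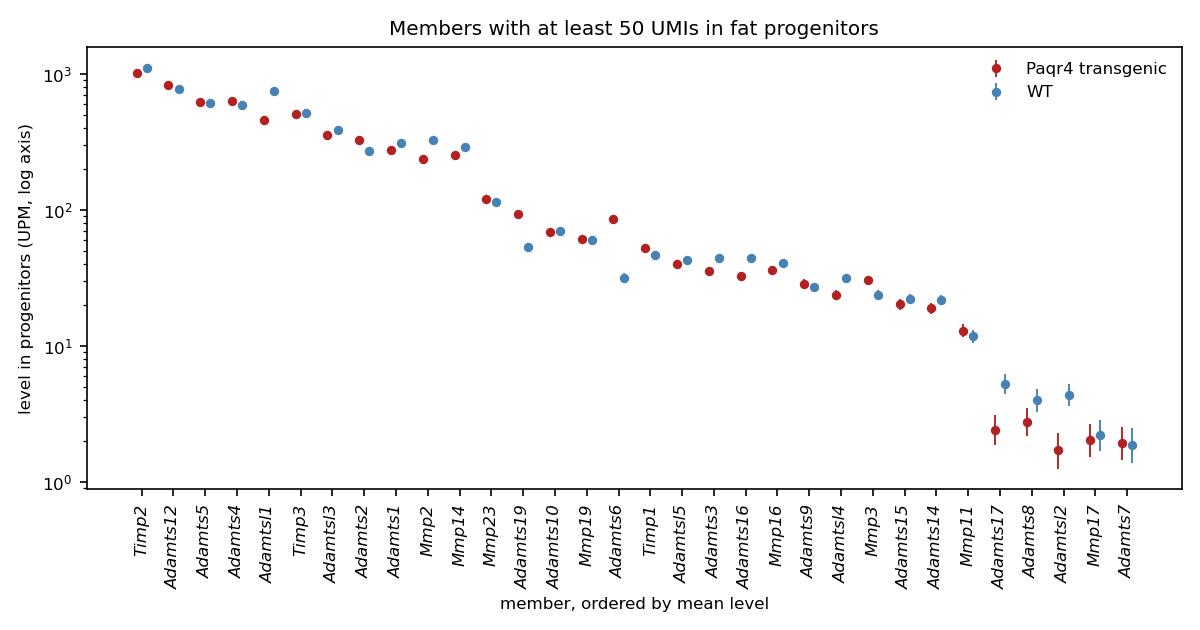
Levels of the 32 genes with at least 50 UMIs in progenitors, in UPM on a log axis, for the Paqr4 transgenic library and the WT library, ordered by mean level, with exact 95% Poisson intervals for counting error. Timp2 is the highest at 1019 UPM in transgenic and 1112 UPM in WT progenitors, and Adamts6 shows the wide gap between libraries at 85.7 and 31.9 UPM.

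The next comparison set the progenitor states side by side. Cells were clustered without the 50 genes, and progenitor clusters were named from marker genes. Dpp4-like cells (245 transgenic and 295 WT) carry markers of interstitial progenitors, known as early cells of the lineage. Icam1-like cells (309 and 205) carry markers of committed preadipocytes. F3-like cells (514 and 322) carry markers of cells described as regulators of adipogenesis, and Il6-like cells (185 and 264) carry Il6, Procr and Thbd. A state counts as leading for a gene where the level was at least 1.5-fold that of all other progenitors in each library. Of the 32 genes, 18 had a leading state, against 20.1% of all 13398 genes tested and 17.5% of the genes that were not used to cluster the cells. States were cut from the same cells, so these values are descriptions.

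Dpp4-like cells led for 7 genes, against a background of 4.84% of all genes. Adamts16, which cuts fibronectin, was almost restricted to them: it stood at 162 UPM in transgenic Dpp4-like cells against 0.992 UPM in the other transgenic progenitors, and at 147 UPM against 1.44 UPM in WT. A UMI of Adamts16 was found in 52.2% of transgenic and 56.6% of WT Dpp4-like cells, and in 0% (Clopper-Pearson upper limit 1.19%) and 0.488% of Icam1-like cells. Median depth was 20995 UMIs in transgenic and 25500 UMIs in WT Dpp4-like cells, and 18812 and 20329 UMIs in Icam1-like cells. Adamtsl1 stood at 1198 UPM in transgenic Dpp4-like cells against 276 UPM in the other progenitors, and at 1396 UPM against 480 UPM in WT. The aggrecanase Adamts5 stood at 1009 UPM against 524 UPM in transgenic cells and at 956 UPM against 463 UPM in WT. Adamtsl4, known for binding fibrillin microfibrils, stood at 54.5 UPM against 16.3 UPM in transgenic cells and at 67.0 UPM against 16.9 UPM in WT.

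Of the inhibitors, Timp2 and Timp3 were also highest in the Dpp4-like state. Timp2 stood at 1547 UPM in transgenic Dpp4-like cells against 891 UPM in the others, and at 1738 UPM against 850 UPM in WT. Timp3 stood at 794 UPM against 440 UPM in transgenic cells and at 829 UPM against 386 UPM in WT. The leads of Timp2 and Timp3 were lost with doublets kept. Adamts6 was the seventh gene, at 209.8 UPM against 55.4 UPM in transgenic cells and at 42.5 UPM against 27.5 UPM in WT. Its lead was lost with the 5 top cells left out, with cells thinned to 5000 UMIs and at clustering resolution 0.3. It was also lost with each library clustered separately and in cells at or below the median share of immediate early genes. In the same state 10 genes were at least 1.5-fold lower than in the other progenitors of each library (against a background of 13.8%), among them Adamts4, Adamts12, Mmp3, Mmp11 and Mmp16. One of the 2 Dpp4-like clusters, with 112 transgenic and 100 WT cells, was led by the immunoglobulin genes Igha, Igkc and Jchain.

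Icam1-like cells led for 4 genes, against a background of 9.56%. Adamts12 stood at 1251 UPM in transgenic Icam1-like cells against 716 UPM in the other progenitors, and at 1245 UPM against 692 UPM in WT. Adamtsl3 stood at 491 UPM against 323 UPM in transgenic cells and at 581 UPM against 349 UPM in WT. Adamts15, a proteoglycan-cutting enzyme, stood at 42.9 UPM against 14.1 UPM in transgenic cells and at 45.7 UPM against 17.8 UPM in WT. Adamts7 was the other, at 2.84 UPM in transgenic and 3.42 UPM in WT Icam1-like cells, from 16 and 14 UMIs. The leads of Adamts12, Adamtsl3 and Adamts7 were lost at clustering resolutions 0.3 and 0.8, with the 50 genes kept in the clustering and with each library clustered separately. Adamts15 also lost its lead at both resolutions, but kept it under the other changes just named. All 4 leads were lost in cells with at least 5000 UMIs, where Icam1-like cells were not among the states compared. These cells carried little Adamts16, Adamts6 or Mmp3, and 10 genes were lower there in each library, against a background of 5.97%.

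F3-like cells led for 2 genes, both MMPs, against a background of 2.48%. Mmp3 stood at 65.8 UPM in transgenic F3-like cells against 9.71 UPM in the other progenitors, and at 71.2 UPM against 7.08 UPM in WT. The gene was rare and uneven: a UMI was found in 5.81% of transgenic and 6.83% of WT progenitors, and 5 cells held 40.4% of its transgenic and 42.3% of its WT UMIs. Mmp11 (stromelysin 3) stood at 16.8 UPM against 10.7 UPM in transgenic F3-like cells and at 17.5 UPM against 9.77 UPM in WT, but its lead was lost under each of the other clusterings, with doublets kept and with the 5 top cells left out. Adamts5 and Adamts16 were lower there in each library, 2 genes against a background of 2.91%. This state joins 2 clusters, one led by Nfatc2 and Epha3 (325 transgenic and 228 WT cells) and one led by C7, Prlr and Mfap4 (189 and 94 cells).

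Il6-like cells led for 5 genes, against a background of 3.61%. Adamts4 stood at 1986 UPM in transgenic Il6-like cells against 392 UPM in the other progenitors, and at 1640 UPM against 237 UPM in WT, and had a UMI in 97.3% of transgenic and 95.8% of WT Il6-like cells. Adamts1 stood at 464 UPM against 242 UPM in transgenic cells and at 488 UPM against 252 UPM in WT. Timp1 stood at 115 UPM against 41.0 UPM in transgenic cells and at 74.7 UPM against 37.5 UPM in WT. Adamts9, a versican-cutting enzyme, stood at 57.2 UPM against 23.7 UPM in transgenic cells and at 50.7 UPM against 19.2 UPM in WT. Adamts8 was the fifth, at 4.74 UPM in transgenic and 10.4 UPM in WT Il6-like cells, from 19 and 67 UMIs. The leads of Adamts8 and Adamts9 were lost with the 5 top cells left out. Adamts8 also lost its lead with cells thinned to 5000 UMIs and with a minimum of 200 UMIs. In Il6-like cells 10 genes, among them Adamtsl1, Adamts6 and Adamts16, were lower in each library, against a background of 18.9%. The 20 immediate early and dissociation genes summed to 20713 UPM in transgenic and 24345 UPM in WT Il6-like cells, and to 25749 and 30871 UPM in the F3-like cluster led by Nfatc2, where Adamts4 stood at 740 and 402 UPM. Their part in these levels was not tested.

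A small group of Itgbl1-like cells (106 transgenic and 42 WT), named from Itgbl1, Wnt4 and Tgfbi, had too few WT cells for a comparison of the libraries and is only described. Its Adamts19 level was 181 UPM in transgenic and 186 UPM in WT cells, its Mmp16 level 95.8 and 115 UPM, and its Adamts9 level 98.0 and 71.3 UPM. The 14 genes with no leading state included the 2 main partners in pro-MMP2 activation, Mmp2 and Mmp14, and the procollagen enzymes Adamts2, Adamts3 and Adamts14. Mmp2 stood at 142 UPM in transgenic and 243 UPM in WT Dpp4-like cells, the lowest of the 4 states in each library, and at 317 and 440 UPM in Icam1-like cells, the highest of the 4.

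**Figure D2:**
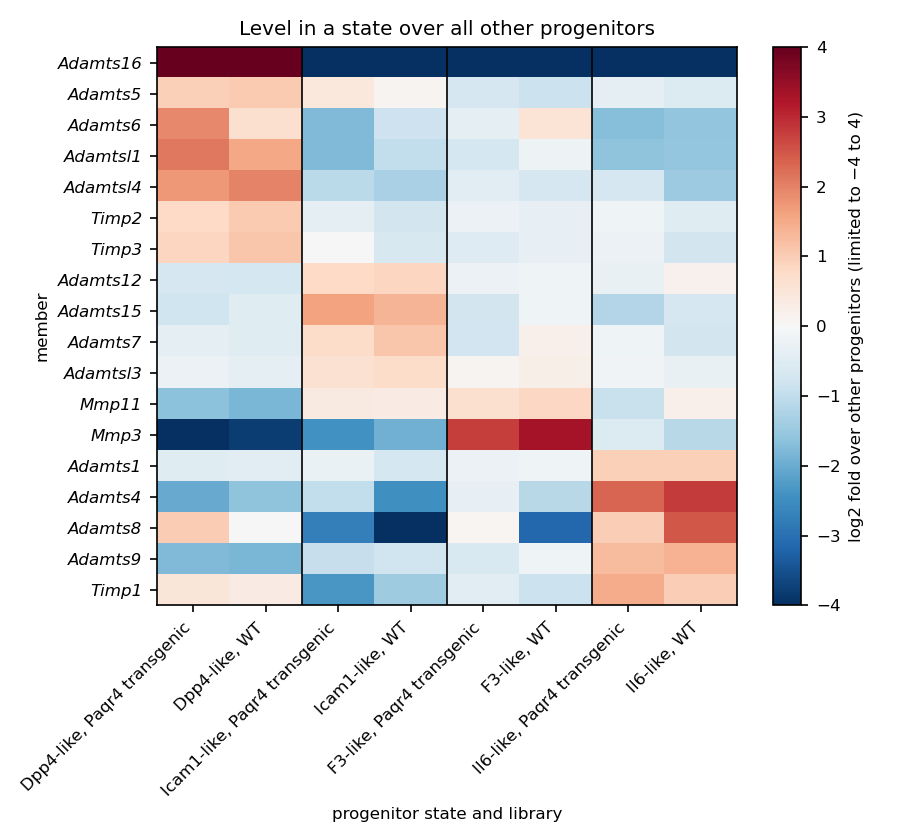
Level of each gene in a progenitor state relative to all other progenitors (log2, colours limited to −4 to 4), for the 18 genes with a leading state, with the transgenic library beside the WT library in each state. Adamts16 stands out in Dpp4-like cells (162 UPM in transgenic and 147 UPM in WT), Mmp3 in F3-like cells (65.8 and 71.2 UPM) and Adamts4 in Il6-like cells (1986 and 1640 UPM).

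The third comparison asked how the genes differed between the Paqr4 transgenic and the WT library in progenitors. At a difference of 1.5-fold or more, 2 of the 32 genes were higher in the transgenic library (6.25%, against a background of 5.27% of all 13398 genes) and 3 were lower (9.38%, against 4.13%). The median log2 ratio was −0.09 over the 32 genes and 0.08 over all genes. The other 27 genes differed by less than 1.5-fold, including each of the 3 TIMPs and all 8 MMPs. The share of higher genes was thus near that of all genes.

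Adamts6, an ADAMTS enzyme that acts on fibrillin microfibrils, had the highest ratio. It stood at 85.7 UPM in transgenic and 31.9 UPM in WT progenitors, from 2255 and 819 UMIs (log2 1.42, 1.31 to 1.54). A UMI was found in 37.4% of transgenic and 26.0% of WT progenitors, and in 20.8% and 10.9% when every cell was thinned to 5000 UMIs, with 1312 transgenic and 1103 WT cells kept. Its gene is on the plus strand of chromosome 13, at 104287835 to 104496695 (GRCm38). The difference was largest in Dpp4-like cells, at 209.8 UPM in transgenic and 42.5 UPM in WT (log2 2.30, 2.12 to 2.49). By cluster, Adamts6 had its smallest ratio in the F3-like cluster led by C7, at 99.5 UPM in transgenic and 96.0 UPM in WT cells (log2 0.05, −0.22 to 0.33). In the other F3-like cluster it stood at 59.4 UPM in transgenic and 22.1 UPM in WT cells (log2 1.43).

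Adamts19, an enzyme known from heart valve development, was the other higher gene, at 93.4 UPM in transgenic and 53.9 UPM in WT progenitors (log2 0.79, 0.70 to 0.89). It was 1.5-fold or more higher in the transgenic library in each of the 4 states, with 136 against 55.1 UPM in Dpp4-like cells (log2 1.30) as the widest gap, and was level in Itgbl1-like cells. Outside Dpp4-like cells these calls depended on the clustering: the ratio was −1.90 in F3-like cells with the 50 genes kept in it, 0.29 in Icam1-like cells with each library clustered separately, and 0.24 in Il6-like cells with doublets kept. With the 4 states and Itgbl1-like cells weighted equally, the Adamts19 ratio was 0.49, under the 1.5-fold limit. The Mmp3 level of 30.5 UPM in transgenic and 23.9 UPM in WT progenitors (log2 0.35, 0.20 to 0.51) and the Adamts2 levels given above (log2 0.28, 0.23 to 0.32) came next. For Adamts2 the transgenic library was the higher one in all 7 progenitor clusters, by 0.13 to 0.40 on the log2 scale.

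Adamtsl1 was the abundant gene among those that were lower in the transgenic library (log2 −0.72, −0.75 to −0.68). A UMI was found in 72.3% of transgenic and 90.3% of WT progenitors, and in 53.9% and 74.6% after thinning. The gap was uneven across states. It was widest in Icam1-like cells, at 159 UPM in transgenic and 415 UPM in WT (log2 −1.39), followed by F3-like cells at 325 and 670 UPM (log2 −1.05) and Il6-like cells at 167 and 305 UPM (log2 −0.87). In Dpp4-like cells, where Adamtsl1 was highest, its levels of 1198 UPM in transgenic and 1396 UPM in WT lay within 1.5-fold. Itgbl1-like cells had 623 UPM in transgenic and 618 UPM in WT. With these states and Itgbl1-like cells weighted equally the ratio was −0.46, again under the limit. Adamtsl1 is a long gene of 914 kb that overlaps Sh3gl2 on the same strand.

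The other 2 lower genes were scarce. Adamtsl2, which binds fibrillin and modulates TGF-beta availability, had 45 transgenic and 113 WT UMIs (1.71 and 4.40 UPM; log2 −1.36, −1.90 to −0.85). Adamts17, a relative of Adamts19 linked to fibrillin microfibrils, had 64 transgenic and 135 WT UMIs (2.43 and 5.26 UPM; log2 −1.11, −1.57 to −0.67). Both were lower in Icam1-like and F3-like cells too, and their Icam1-like levels were 2.13 UPM in transgenic and 11.0 UPM in WT for Adamtsl2 and 0.886 and 11.0 UPM for Adamts17. Adamts8 (log2 −0.53, −0.99 to −0.09) and Adamts16 (log2 −0.45, −0.58 to −0.32) were below WT by less than 1.5-fold. Dpp4-like cells, which held nearly all Adamts16 UMIs, made up 18.03% of transgenic and 26.2% of WT progenitors, and within them Adamts16 stood at 162 UPM in transgenic and 147 UPM in WT.

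Among the MMPs, Mmp2 had one direction throughout. Its log2 ratio was −0.46 (−0.51 to −0.41) over all progenitors, and the transgenic level was the lower one in all 7 progenitor clusters, with log2 ratios of −0.83 to −0.43. The cluster levels ran from 115 to 340 UPM in the transgenic library and from 205 to 514 UPM in WT. Mmp16, a membrane-bound MMP, was also below WT in all 7 clusters, but in 3 of them the interval included 0. Mmp14, with a log2 ratio of −0.19 (−0.24 to −0.14), and Timp2, with −0.13 (−0.15 to −0.10), lay closer to WT.

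The other genes past 1.5-fold differed by state. In Dpp4-like cells 2 of 27 genes were higher (7.41%, against a background of 7.81%), Adamts6 and Adamts19, and 2 were lower (against 4.90%), namely Mmp2 and Mmp16, at 13.4 UPM in transgenic and 22.3 UPM in WT. In Icam1-like cells 3 of 28 were higher (10.7%, against 5.32%), and the largest was Adamts4, at 360 UPM in transgenic and 125 UPM in WT (log2 1.53, 1.39 to 1.67), a ratio that was 0.075 at resolution 0.3. There 5 were lower (17.9%, against 6.17%): Adamts17, Adamtsl2, Adamtsl1, Adamts3 and Timp1, of which Adamts3 stayed past 1.5-fold in 3 of 7 alternatives and Timp1 in 2 of 7. In F3-like cells 3 of 28 were higher (against 4.46%), with Adamts4 at 544 UPM in transgenic and 321 UPM in WT, and 5 were lower (against 5.02%). In Il6-like cells 4 of 27 were higher (14.8%, against 5.53%), namely Adamts6, Mmp3 (−0.76 with each library clustered separately), Adamts19 and Timp1, and 5 were lower (18.5%, against 5.59%). Adamts3, the procollagen and pro-VEGFC processing enzyme, stood there at 26.2 UPM in transgenic and 60.3 UPM in WT (log2 −1.20).

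The pooled value of Adamts4 was smaller than its values within most states. Over all progenitors its log2 ratio was 0.11, but it was 0.46 with the 4 states and Itgbl1-like cells weighted equally. Adamts4 was above WT in 6 of 7 clusters. Il6-like cells, where Adamts4 was highest, made up 13.6% of transgenic and 23.4% of WT progenitors. For Timp1 the directions differed between 2 states, but not under every clustering. In Icam1-like cells it stood at 12.6 UPM in transgenic and 19.3 UPM in WT (log2 −0.62), whereas in Il6-like cells it stood at 115 and 74.7 UPM (log2 0.62). The Icam1-like ratio was 0.63 with the 50 genes kept in the clustering and 0.012 with each library clustered separately, and the Il6-like ratio stayed past 1.5-fold in 2 of 6 alternatives. The difference between these ratios was not tested, and Timp1 was above WT in 6 of 7 clusters.

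**Figure D3:**
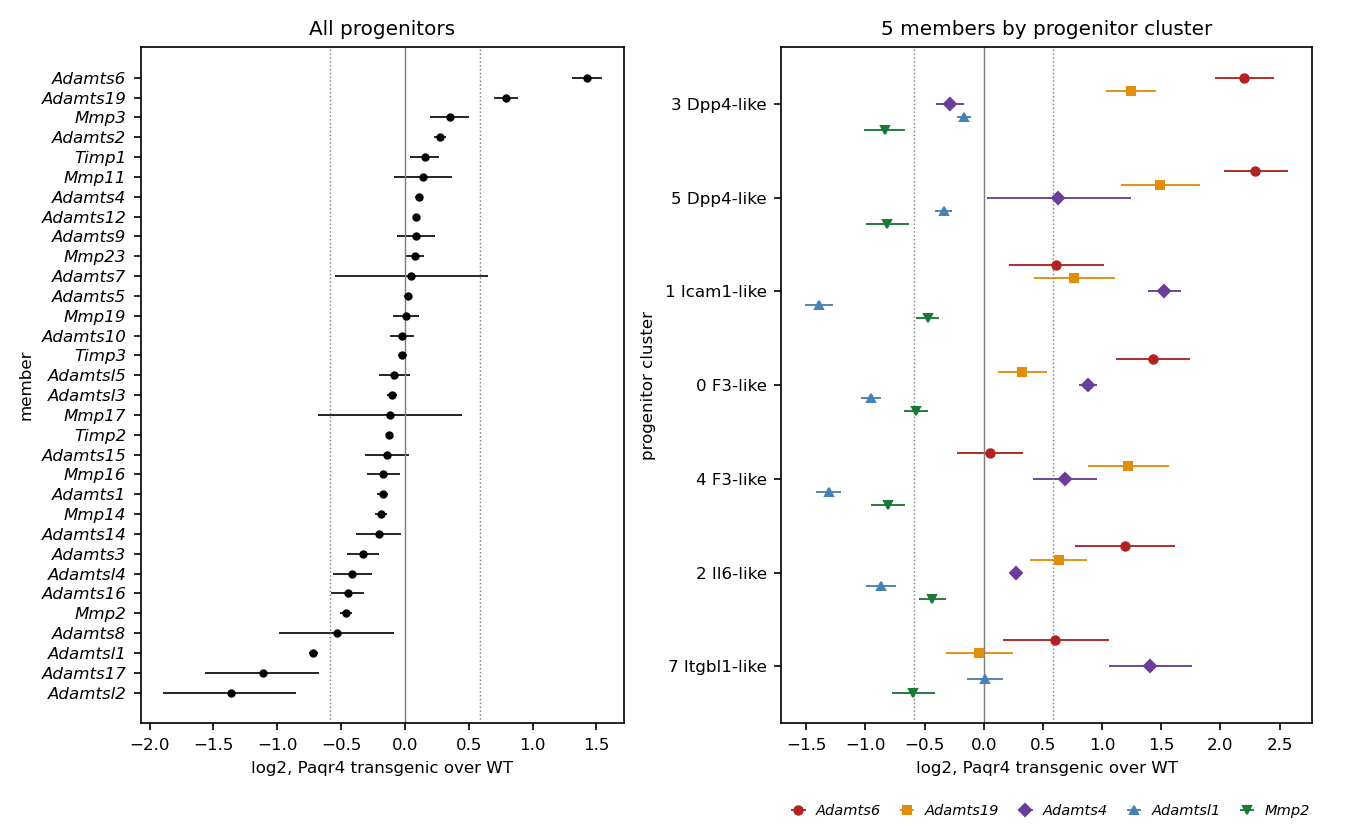
Log2 ratio of the Paqr4 transgenic over the WT library with exact 95% intervals for counting error, for the 32 genes over all progenitors and for 5 of them in each of the 7 progenitor clusters (dotted lines mark 1.5-fold). Adamts6 lies at 1.42 and Adamtsl1 at −0.72 over all progenitors, and by cluster Adamts6 runs from 0.05 to 2.30 while Mmp2 stays between −0.83 and −0.43.

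Endothelial cells, which line blood vessels, carried a much narrower set of these genes. Each class was compared within each library, for 34 genes with at least 50 UMIs. In both libraries 24 of them (70.6%) were at least 1.5-fold lower in endothelial cells than in progenitors. Another 5 (14.7%) were at least 1.5-fold higher. Of all genes 16.1% were lower and 26.6% higher, but these shares depend on the floor of 3 UMIs. That floor equals 4.97 UPM in transgenic and 3.14 UPM in WT endothelial cells. A gene with no endothelial UMI and a progenitor level below this floor could count as higher, but never as lower. The shares of all genes therefore cannot serve as a background here. The remaining 5 of the 34 genes were Adamts1, Adamts8, Adamts17, Adamtsl2 and Mmp17. Adamts1 had 239 transgenic and 247 WT endothelial UMIs, whereas the others had at most 2 in a library, too few to place them. Endothelial cells were shallower, with medians of 7584 UMIs in the transgenic and 9857 UMIs in the WT library, against 19327 and 22599.5 UMIs in progenitors. The 12 endothelial markers summed to 14342 UPM in transgenic and 16569 UPM in WT endothelial cells, against 259 and 289 UPM in progenitors.

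The 5 genes higher in endothelial cells were of mixed kind, with 2 inhibitors, 2 ADAMTS enzymes and 1 membrane-bound MMP. Adamts9 had the highest level of all, at 2283 UPM in transgenic endothelial cells against 28.8 UPM in progenitors, a 79.2-fold difference, and at 939 UPM against 27.1 UPM in WT, a 34.6-fold difference. Timp3 stood at 1177 UPM in transgenic endothelial cells against 509 UPM in progenitors and at 1253 UPM against 517 UPM in WT. Timp4, an inhibitor with a narrow tissue range, stood at 227 UPM in transgenic endothelial cells against 0.076 UPM in progenitors. In WT it stood at 118 UPM in endothelial cells and had 0 UMIs in progenitors, so it was at least 1012-fold higher against a floor of 3 UMIs in that class. Mmp15, a membrane-type MMP, stood at 56.4 UPM in transgenic endothelial cells against 0.798 UPM in progenitors and at 113 UPM against 0.701 UPM in WT. Adamts7 rested on only 5 transgenic and 12 WT endothelial UMIs.

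A UMI of Timp4 was found in 53.2% of transgenic and 22.1% of WT endothelial cells, and in 0.147% and 0% (upper limit 0.326%) of progenitors. Mmp15 was found in 29.1% of transgenic and 58.9% of WT endothelial cells, and in 1.32% and 1.51% of progenitors. With every cell thinned to 5000 UMIs, the endothelial shares were 44.4% in transgenic and 19.5% in WT for Timp4, and 17.5% and 38.96% for Mmp15. The inhibitors thus split by cell class. Timp2 stood at 3.32 UPM in transgenic endothelial cells against 1019 UPM in progenitors and at 15.7 UPM against 1112 UPM in WT, 307-fold and 70.8-fold lower. In near-empty droplets (at most 50 UMIs), a measure of free RNA, Timp2 stood at 626 UPM in the transgenic and 508 UPM in the WT library. Mmp2 had 3 UMIs in the endothelial cells of each library. Adamts5 stood at 23.2 UPM in transgenic and 35.6 UPM in WT endothelial cells, against 619 and 608 UPM in progenitors.

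Only 8 of the 50 genes reached 50 UMIs in endothelial cells, so few could be compared between the libraries. Of these 8, 5 were 1.5-fold or more higher in the transgenic library (62.5%, against a background of 10.1% of all 5245 genes) and 2 were lower (25%, against 12.9%). Adamts9 stood at 2283 UPM in transgenic and 939 UPM in WT endothelial cells (log2 1.28, 1.16 to 1.41), Timp4 at 227 and 118 UPM (log2 0.94, 0.57 to 1.31) and Adamts1 at 396 and 258 UPM (log2 0.62, 0.35 to 0.88). Adamts12 and Adamts4 were also higher, but at most 5 cells of a library held 100% of the transgenic and 97.3% of the WT Adamts12 UMIs, and 81.7% and 94.0% of those of Adamts4. Mmp15 was lower, at 56.4 UPM in transgenic and 113 UPM in WT endothelial cells (log2 −1.003, −1.60 to −0.44), and Adamts10 had an interval that included 0. Timp3 differed by less than 1.5-fold.

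The endothelial cells of the libraries fell unevenly over 2 clusters. At a finer clustering (resolution 0.8) they formed one cluster led by Cldn5, Cd36, Dach1 and Fabp4, with 66 transgenic and 37 WT cells, and one led by Plvap, Emcn, Lama3 and Kdr, with 13 transgenic and 58 WT cells. Timp4 stood at 272 UPM in transgenic and 276 UPM in WT cells of the Cldn5-led cluster, and at 0 and 1.82 UPM in the Plvap-led cluster. Adamts4 had the same pattern, at 119 UPM in transgenic and 123 UPM in WT cells of the Cldn5-led cluster and 0 UMIs in the Plvap-led one. Adamts9 stood at 2468 UPM in transgenic and 1505 UPM in WT cells of the Cldn5-led cluster and at 1351 and 520 UPM in the Plvap-led cluster, so its direction was the same in both. The Mmp15 value was lower in the transgenic library in both clusters, at 53.7 against 76.3 UPM in the Cldn5-led and 70.1 against 140 UPM in the Plvap-led cluster. These values rest on 27 transgenic and 31 WT UMIs in the Cldn5-led cluster and on 7 and 77 in the Plvap-led one. No interval was computed within these clusters, so the Mmp15 direction in each is uncertain. Adamts1 was above WT in the Cldn5-led cluster, at 463 UPM in transgenic and 323 UPM in WT. It was below WT in the Plvap-led cluster, at 60.0 and 211 UPM, where the transgenic value rests on 6 UMIs. The antisense RNA 9530026P05Rik overlaps Adamts9, and stood at 1350 UPM in transgenic and 1127 UPM in WT endothelial cells. The sources used here do not state whether counting used strand.

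**Figure D4:**
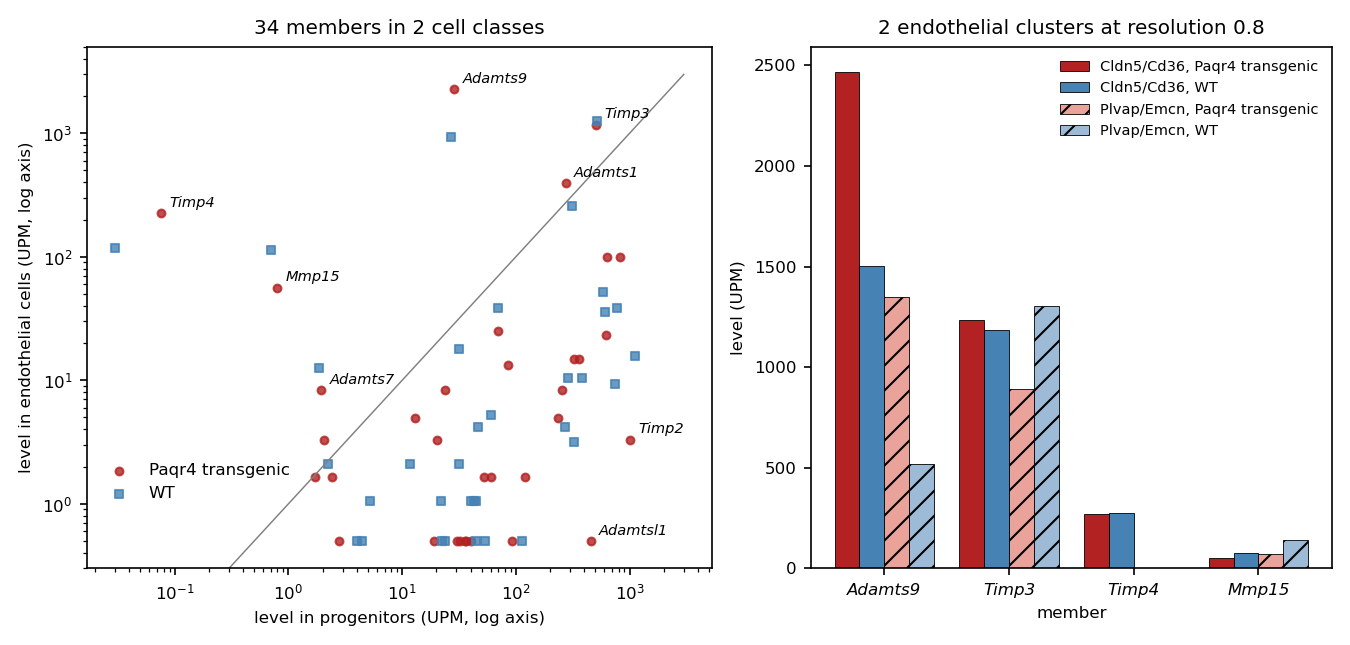
Levels of 34 genes in endothelial cells against progenitors, in UPM on log axes, for the transgenic and the WT library, and levels of 4 genes in the 2 endothelial clusters. Genes with 0 UMIs in endothelial cells are drawn at 0.5 UPM, and Timp4 in WT progenitors, also 0, at 0.03 UPM. Adamts9, Timp3, Timp4, Mmp15 and Adamts7 lie above the line of equal level in each library, and Timp4 is found in the Cldn5-led cluster at 272 UPM in transgenic and 276 UPM in WT cells.

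Genes that work with these proteases were read from further lists in progenitors. They are read against all genes, of which 5.27% were higher and 4.13% lower in the transgenic library, with a median log2 ratio of 0.08. Among 15 tested activators, inhibitors and clearance factors, 1 was higher and 0 were lower, close to that background, with a median of −0.03. The higher one was Thbs2, a matricellular protein that controls MMP2 uptake, at 18.3 UPM in transgenic and 11.9 UPM in WT progenitors. The proprotein convertase Pcsk6 stood at 236 and 306 UPM and Spock2 at 20.2 and 28.5 UPM in the transgenic and WT libraries, both within 1.5-fold. Among 13 other metzincin proteases, 1 was higher (Adam23, 32.4 UPM in transgenic and 19.9 UPM in WT) and 1 was lower (Tll1, a procollagen C-proteinase, 4.94 and 13.3 UPM), with a median of −0.09.

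A list of matrix substrates also held Vegfc and Ccbe1, so it was not limited to matrix components. Of its 20 tested genes, 3 were higher in the transgenic library (background 5.27%) and 0 were lower (4.13%), with a median of 0.20 against 0.08 over all genes. The 3 higher genes were Ccbe1 at 47.9 UPM in transgenic and 23.6 UPM in WT progenitors (log2 1.02), the lymphatic growth factor Vegfc at 125 and 73.3 UPM (log2 0.77), and the proteoglycan Bgn at 581 and 347 UPM (log2 0.75). CCBE1 is known to assist ADAMTS3 in the cleavage that activates pro-VEGFC. Adamts3 itself was within 1.5-fold over all progenitors (log2 −0.33, −0.45 to −0.20). The versican gene Vcan, whose product is cut by several of these enzymes, stood at 564 UPM in transgenic and 395 UPM in WT progenitors (log2 0.51), also within the limit.

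Of 20 immediate early and dissociation genes, 0 were past 1.5-fold in either direction in progenitors, and their median was −0.10. Zfp36 had the largest difference, at 1607 UPM in transgenic and 2362 UPM in WT (log2 −0.56). In endothelial cells 6 of 18 such genes were higher in the transgenic library (background 10.1%) and 0 were lower (12.9%), among them Atf3 at 627 UPM in transgenic and 246 UPM in WT. They were higher beside endothelial Adamts1, Adamts4 and Adamts9, and their part in those values was not tested. Of 10 mitogen and TGF-beta responsive matrix genes, 2 were higher in transgenic progenitors (background 5.27%) and 1 was lower (4.13%). These were Col8a1 at 87.7 UPM in transgenic and 19.4 UPM in WT (log2 2.17), Ccn2 at 93.6 and 38.6 UPM (log2 1.28), and Postn at 281 and 565 UPM (log2 −1.01).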

How the data were processed

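Per the labels' protocols, cells were sorted and made into libraries with the 10X Genomics workflow; the deposited matrices hold counts, that is, UMIs per gene and barcode as the authors made them, with no normalization. Cell Ranger 7.0.0 and mm10 are given per the submitters' processing notes and Cell Ranger 4 per the file headers; the labels do not settle which wrote the matrices, nor whether intronic reads were counted. Totals were 43084906 UMIs in the Paqr4 transgenic and 44145257 UMIs in the WT library.

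From these counts, cells with at least 1000 UMIs, at least 500 genes and at most 10% mitochondrial UMIs were kept, and doublets called by Scrublet within each library were left out (4 transgenic and 1 WT cells, few enough that the caller found almost none and doublets may remain). Cells were scaled to 10000 UMIs and log-transformed, and the 2000 most variable genes, without the 50 family members, 30 principal components and 15 neighbours were clustered by Leiden at resolution 0.5 (scanpy 1.11.5, leidenalg 0.10.2). Clusters were named from marker lists; the naming thresholds were chosen after clusters had been seen. The family members and all lists were chosen with earlier results of these data known.

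UMIs were summed per class and library and divided by the class total (UPM). Levels carry exact Poisson, shares Clopper-Pearson and log2 ratios exact conditional binomial 95% intervals (scipy 1.17.1), which leave out variation between cells and mice. No test was run between single libraries. A gene was compared at 50 or more UMIs over both libraries and called at 1.5-fold; a class with 0 UMIs was set to a floor of 3 UMIs, which equals 0.114 UPM in transgenic and 0.117 UPM in WT progenitors and 4.97 and 3.14 UPM in endothelial cells. Described in full are the 14 genes highest in progenitors, the 6 highest and 6 lowest ratios, up to 6 highest endothelial genes above progenitors, and up to 3 genes per list by size of ratio; the others were added after their values were seen. The ratio step was checked on simulated counts. Alternatives covered scaling, minimum counts, the fold, thinning to 5000 UMIs, doublets, the clustering and the cells with the most UMIs.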

Additional observations from a re-analysis of the deposited data

Results flagged for a closer look

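Some of these genes had UMIs in small clusters that enter no comparison above, at levels over what 3 UMIs would give. Cluster 11, with 6 transgenic and 9 WT cells and epithelial markers, held Mmp15 at 67.5 UPM (6 transgenic and 16 WT UMIs, in 7 cells) and Timp4 at 33.8 UPM (7 and 4 UMIs, in 6 cells). Cluster 15, with 3 transgenic and 6 WT cells and Schwann cell markers, held Adamts20, which cuts versican, at 215 UPM (7 transgenic and 18 WT UMIs, in 6 cells) and Mmp15 at 86.2 UPM (2 and 8 UMIs, in 6 cells). In progenitors Adamts20 stood at 0.836 UPM in the transgenic and 0.935 UPM in the WT library.

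Timp1 stood out because its ratio of transgenic over WT had opposite signs in 2 progenitor states, with log2 −0.62 in Icam1-like and 0.62 in Il6-like cells; the difference between states was not tested. With the family members kept in the clustering the Icam1-like value was 0.63.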

How the results depend on the processing

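No paired analysis was possible because each genotype has 1 library, and leaving out a library leaves no comparison. Over all alternatives, 73 of the recomputed counts and medians stayed within the limits set for an unchanged value and 9 moved. The 2 genes higher in transgenic progenitors became 1 with a 2-fold limit or with all states, Itgbl1-like cells included, weighted equally. The 3 lower ones became 1 with a minimum of 200 UMIs, 8 with a minimum of 1 UMI in each library, and 5 in cells at or below the median share of immediate early genes, an alternative added after seeing the data. Summed over the 4 states, 12 higher pairs of a gene and a state, with some genes counted in several states, became 7 with separate clustering of each library. In endothelial cells the 5 higher genes became 3 with the 5 top cells left out, and the 2 lower genes became 1 with those cells left out or with cells of at least 5000 UMIs. The 18 genes with a leading state ranged from 12 to 19 over the clusterings, the doublet and top-cell settings and the immediate early alternative, and numbered 7 with a 2-fold limit; at resolution 0.3, where no Il6-like cluster formed, 7 of the 18 led in the same state.

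Adamts6 in progenitors kept its direction and stayed past 1.5-fold in 15 of 15 alternatives, at 1.27 to 1.71. Among ratios between the libraries that were past 1.5-fold in the main setting, directions turned only within states. For Adamts6 the ratio was −0.13 in Icam1-like and −0.026 in F3-like cells with each library clustered on its own, and −0.17 in F3-like cells with family members kept in the clustering. For Timp1 in Icam1-like cells it was 0.63 with members kept and 0.012 with libraries clustered on their own. For Adamts19 in F3-like cells it was −1.90 and −0.17 under the same changes, and for Mmp3 in Il6-like cells −0.76 with libraries clustered on their own. The cause was not tested. Scaling that sets the median of all genes to 0 moved every progenitor ratio down by 0.08. Depth limits the scarce genes: 18 of the 50 had fewer than 50 UMIs in progenitors, and only 8 reached 50 in endothelial cells.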

Other observations

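The clusters of mural and lymphatic cells held too few cells for a comparison of the libraries. In pericytes or smooth muscle cells (6 transgenic and 11 WT cells), Timp3 stood at 2340 UPM in the transgenic and 1601 UPM in the WT library, and Adamts12 at 1745 and 1086 UPM. In lymphatic endothelial cells (6 cells of each library), Timp3 stood at 2862 UPM in transgenic and 3141 UPM in WT, and Timp2 at 480 and 1037 UPM, while Adamts9, the leading gene of the blood endothelial cells, had 0 UMIs in both.

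Neighbouring genes did not always share a leading state. Adamts15 and Adamts8 lie head to head on chromosome 9 with 20109 bases between them, and led in Icam1-like and Il6-like cells. Neither of these leads held under every alternative. Adamts1 and Adamts5 lie on 1 strand of chromosome 16 with 53059 bases between them, and led in Il6-like and Dpp4-like cells.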
